A study of Eonycteris spelaea and Mus musculus with 51 samples.

Results

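Ribosome biogenesis was followed through 42 mouse genes that encode nucleolar assembly factors and RNA polymerase I subunits, taken by gene symbol from the 40840 rows of the mouse count table. The rule used gene names and no measured value, but the genes were picked with earlier results of these data known. By role they comprise 6 genes of RNA polymerase I and rDNA transcription, 7 core proteins of small nucleolar ribonucleoprotein particles (snoRNPs), 5 nucleolar scaffold and histone- or growth-linked genes, 12 genes of the small subunit processome and 40S maturation, and 12 genes of 60S assembly. RNA was sequenced in bulk from muscle, lung and blood of mice. Heat mice were sampled directly after a heat shock of 1 h given to the living animal, recovery mice after the same shock and a further 4 h, and control mice before any treatment. Muscle and lung had 3 libraries in each condition and blood had 2, which makes 24 libraries. The labels give no strain, age or sex and do not name the muscle. They do not say whether replicates are separate mice, so p-values measure the spread between these samples, which may be technical.

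Ribosomes are built in the nucleolus. RNA polymerase I transcribes the long precursor of the ribosomal RNAs, snoRNPs methylate and pseudouridylate it, the small subunit processome folds and cleaves its first part into the precursor of the 40S subunit, and a separate set of factors shapes the remainder into the 60S subunit. The pathway is one of the main energy costs of a growing cell, and nucleolar organisation is known to be sensitive to heat in cultured cells.

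All 42 genes passed the filter on low counts in each tissue. The lowest count of any member in any library was 42 reads, and libraries held 17.1 to 54.5 M counts. Levels are given as CPM, counts relative to library size, scaled within a tissue by TMM, the trimmed-mean method of edgeR, which sets the bulk of genes equal between libraries. A gene was called, and is said to have risen or fallen, at an adjusted p under 0.05 by the quasi-likelihood test of edgeR, with p-values adjusted by Benjamini-Hochberg over all genes tested. The defining markers matched the labelled tissues. On a scale shared by all tissues, muscle fibre genes summed to 232000 CPM or more in muscle libraries and to 1990 CPM or less in lung and blood. Lung epithelial genes summed to 8330 CPM or more in lung and to 19.1 CPM or less in blood and muscle, and erythroid genes to 709000 CPM or more in blood and 4350 CPM or less in lung and muscle. In bulk tissue, fewer cells of a type and less RNA per cell cannot be told apart.

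Of the 42 genes, 1 rose and none fell in muscle directly after heat; over the 17746 genes tested 0.428% were called, 0.293% higher and 0.135% lower. It was Nle1, a WD-repeat protein of 60S assembly; its yeast counterpart Rsa4 is pulled from the maturing particle by the ATPase Rea1, the counterpart of mouse Mdn1. Nle1 had 190, 91.2 and 216 CPM in heat muscle, against 6.73, 6.15 and 7.66 CPM in control muscle. Every heat library lay far above every control library, and heat library 2 was the lowest of the heat libraries. The log2 change was 4.60 (SE 0.53, adjusted p = 0.027). In raw reads these were 5766, 2455 and 6677 in heat muscle, against 215, 220 and 225 in control muscle. The size hardly moved when single muscle libraries were left out (log2 4.37 to 4.89), but the call held in 5 of 9 such fits: without control 1, control 2, heat 1 or heat 3 the adjusted p was 0.151, 0.161, 0.122 and 0.0759. With the replicate number as a block the change was 4.61 and not called (adjusted p = 0.0931), and DESeq2 and the edgeR fit of all 24 libraries called it (adjusted p = 6.047e-22 and 4.45e-05).

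In recovery muscle Nle1 had 9.41, 34.4 and 19.8 CPM. All 3 recovery libraries lay above all control libraries and below all heat libraries. The log2 change was 1.63 in recovery over control (SE 0.48, adjusted p = 0.693) and -2.97 in recovery over heat (SE 0.49, adjusted p = 0.0502), and neither was called.

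**Figure D1:**
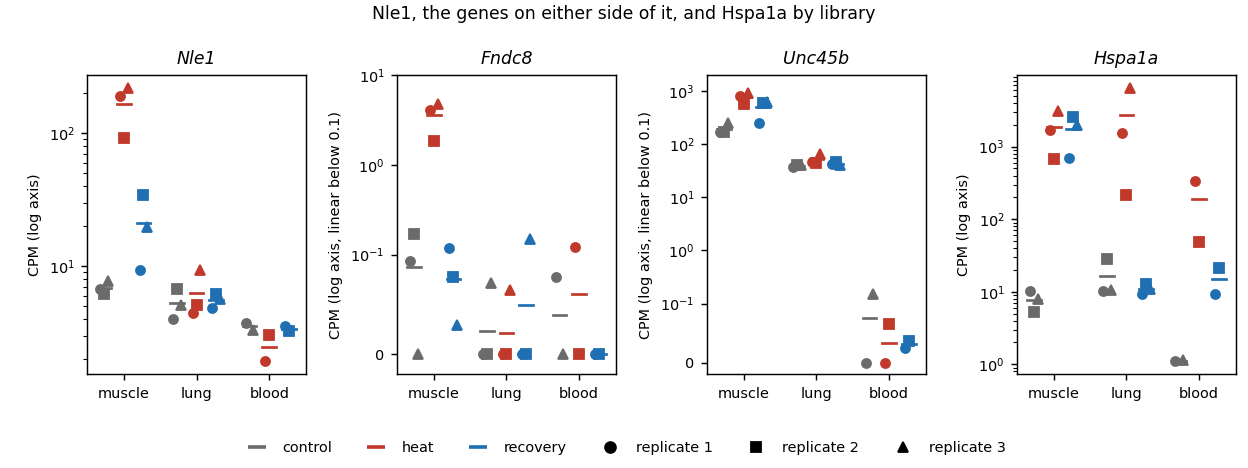
CPM of Nle1, of Fndc8 and Unc45b, which lie on either side of it, and of the heat shock gene Hspa1a in each library, by tissue and condition. Points are libraries, shapes are replicate numbers and horizontal bars are group means; vertical axes are logarithmic, those of Fndc8 and Unc45b being linear below 0.1 CPM. Nle1 stands at 91.2 to 216 CPM in heat muscle and under 10 CPM in all lung and blood libraries.

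The response of Nle1 differed between tissues. In lung it had 4.46, 5.13 and 9.36 CPM after heat, against 3.99, 6.76 and 5.08 CPM in control, and the groups overlapped (log2 0.25). In blood it had 1.94 and 3.01 CPM after heat, against 3.72 and 3.33 CPM in control, so both heat libraries lay below both control libraries (log2 -0.51, adjusted p = 0.427). Tested as a difference of heat responses over all 24 libraries, the muscle change exceeded the lung change by 4.37 (log2, SE 0.57, adjusted p = 0.00608) and the blood change by 5.15 (SE 0.65, adjusted p = 0.00117). Both differences were called in each of 24 fits that left out 1 library. Nle1 was the single member called in either difference, where 0.0443% and 1.47% of the 22592 genes tested were called. Of the differences between lung and blood responses none was called by edgeR or DESeq2, and 0.0575% of genes were called by edgeR. At an unadjusted p under 0.05 there were 2 of the 42 members, against 1283 of the 22592 genes tested.

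Heat shock genes were high in the same muscle libraries. Hspa1a, an inducible cytosolic chaperone of the Hsp70 family whose near-identical copy Hspa1b makes its count uncertain, had 1722, 666 and 3132 CPM in heat muscle and 703, 2588 and 2001.5 CPM in recovery muscle, against 10.2, 5.28 and 7.87 CPM in control muscle. Its order of libraries was that of Nle1 within heat and within recovery, a description of 3 libraries each. The levels of Hspa1a and Nle1 parted in time: Hspa1a in recovery muscle was near its heat level (log2 -0.06 for recovery over heat), while the Nle1 value for the same comparison was -2.97. Heat shock genes varied there: in a panel of 8, 6 changes were negative and 2 positive, none called by edgeR. Their median was -0.156 and their range -2.74 to 0.48, so a low recovery value was not particular to Nle1. In lung, where Hspa1a had 1548, 215 and 6334 CPM after heat and 10.2, 28.4 and 10.6 CPM in control, Nle1 stayed under 10 CPM in all libraries.

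Nle1 has close neighbours, and how the authors' counting treated strand is not stated. In the mouse annotation GENCODE M21 an exon of Fndc8, a gene on the opposite strand, overlaps the end of Nle1, and Unc45b, which encodes a chaperone of muscle myosin and runs the opposite way, lies beyond the other end. Both were looked up after the values of Nle1 were seen. Fndc8 had 122, 50 and 146 reads in heat muscle and 4, 2 and 1 reads in recovery muscle, against 3, 6 and 0 reads in control muscle. It rose after heat by 5.23 (log2, SE 0.78, adjusted p = 0.039) and fell in recovery relative to heat (log2 -5.48, adjusted p = 0.0392). Fndc8 passed the filter on low counts in muscle through its heat libraries alone. The rise and the fall therefore describe these reads and are no separate evidence of a heat response. These Fndc8 calls held in 5 and 2 of 9 fits that left out 1 library, with adjusted p of up to 0.221 and 0.163. Both were lost with the replicate block (adjusted p = 0.0968 and 0.104) and under library size alone (0.0779 and 0.0766). For each 100 Nle1 reads there were 2.12, 2.04 and 2.19 Fndc8 reads in heat muscle and 1.25, 0.225 and 0.151 in recovery muscle, against 1.4, 2.73 and 0 in control muscle. Control enclosed the heat ratios, and all recovery ratios lay below those of heat.

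Unc45b had 24567, 15152 and 27717 reads in heat muscle and 8374, 15407 and 21034 in recovery muscle, against 5424, 6092 and 7205 in control muscle. Its log2 change after heat was 1.95 (adjusted p = 0.0558, not called; 0.00285 in the fit of all 24 libraries). For each 100 Unc45b reads there were 23.5, 16.2 and 24.1 Nle1 reads in heat muscle and 3.81, 5.77 and 3.16 in recovery muscle, against 3.96, 3.61 and 3.12 in control muscle. The ratio separated heat from both other conditions, and recovery overlapped control. How many of the Nle1 reads in heat muscle come from the Nle1 transcript and how many from transcription of its neighbours was not tested. Of the 42 members 17 have an exon that overlaps one of a gene on the opposite strand, and for 14 of them the count table lists such a gene.

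The other 41 genes were not called in heat muscle, and their log2 changes lay between -0.68 and 0.54, with a median standard error of 0.14 over all 42. The group median was 0.094, against -0.046 over all genes tested, and 6 of 42 members had an unadjusted p under 0.05, against 30% of all genes. Libraries of heat and control muscle did not overlap for 5 members with higher and 4 with lower heat values, against 16.1% and 21.5% of all genes. Under TMM 29 of 42 were positive. Library size alone moved the median of all genes to -0.43 and left 3 of 42 positive. Under either scaling 35 of 42 lay above the all-gene median, a count that a shift common to all genes leaves nearly unchanged.

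**Figure D2:**
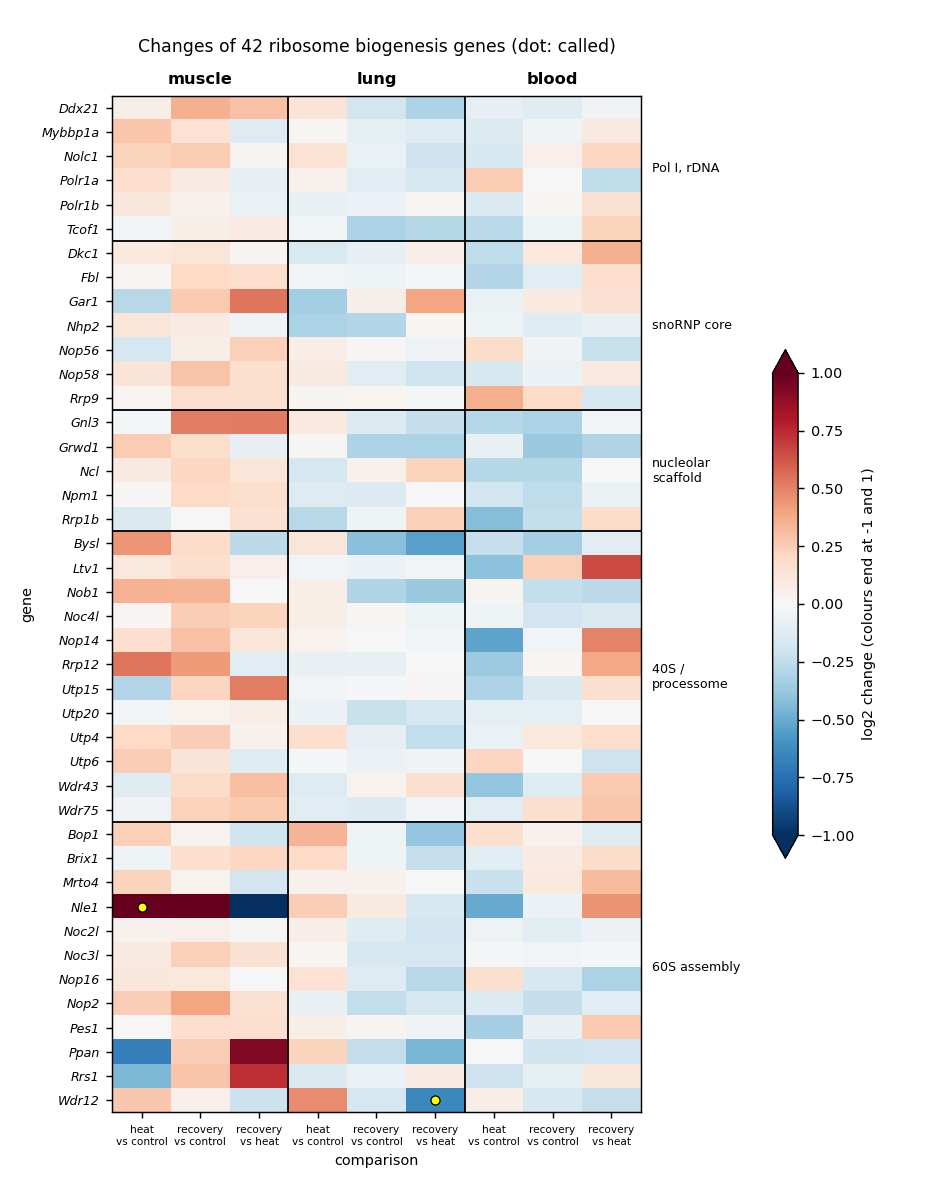
Heat map of the log2 change of each of the 42 genes (rows, grouped by role) in 9 comparisons (columns, 3 for each tissue), red for higher and blue for lower in the condition named first; colours end at -1 and 1. Dots mark the 2 called changes, Nle1 in heat muscle and Wdr12 in recovery over heat lung.

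In the RNA polymerase I group no change was called in heat muscle and the 6 log2 changes ran between -0.03 and 0.28. Polr1a, the largest subunit of the enzyme, had 62.3, 62.7 and 67.8 CPM in heat muscle, against 47.1, 52.0 and 72.6 CPM in control muscle. Polr1b, its partner in the catalytic core, had 22.8, 20.3 and 20.4 CPM in heat muscle, against 17.9, 17.9 and 23.0 CPM in control muscle. For both genes control library 3 was the highest of all and the groups overlapped. The others were Tcof1 (treacle, needed for rDNA transcription), Nolc1 (a chaperone of snoRNPs), the helicase Ddx21 and the Myb-binding protein Mybbp1a.

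The 7 snoRNP proteins had log2 changes of -0.28 to 0.13 in heat muscle, none called and none at an unadjusted p under 0.05. Fbl, the methyltransferase of box C/D particles, had 6.88, 5.76 and 7.87 CPM in heat muscle, against 6.69, 6.68 and 6.81 CPM in control muscle (log2 0.02, SE 0.19). The heat libraries enclosed the control ones. The lowest change, -0.28, was that of Gar1, a core protein of the box H/ACA particles that also hold the pseudouridine synthase Dkc1.

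Ncl (nucleolin) and Npm1 (nucleophosmin), abundant nucleolar proteins, were not called either. Ncl had 76.1, 74.2 and 86.2 CPM in heat muscle, against 72.1, 70.1 and 80.3 CPM in control muscle (log2 0.09, SE 0.10). Npm1 had 35.8, 37.5 and 43.2 CPM in heat muscle, against 35.4, 33.9 and 46.6 CPM in control muscle (log2 0.01, SE 0.15). The groups overlapped for both genes.

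Among the 40S factors, Rrp12 and Bysl had the highest changes in heat muscle. Rrp12, which takes part in export of both subunits in yeast, had 91.3, 87.9 and 71.3 CPM in heat muscle, against 53.7, 54.3 and 64.8 CPM in control muscle (log2 0.54, adjusted p = 0.0927). Bysl, a factor of late 40S precursors, had 22.6, 21.9 and 19.2 CPM in heat muscle, against 16.0, 14.1 and 16.8 CPM in control muscle (log2 0.44, adjusted p = 0.0969). Neither gene's groups overlapped and neither passed the test; DESeq2 called both, with adjusted p of 0.0121 and 0.0207. An exon of Bysl overlaps one of Ccnd3, on the other strand. Utp15, of the processome subcomplex that first meets the nascent transcript, went the other way with 7.83, 7.62 and 7.96 CPM in heat muscle, against 9.26, 8.97 and 10.5 CPM in control muscle (log2 -0.30, adjusted p = 0.151).

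The lowest changes in heat muscle were those of 2 genes of 60S assembly. Ppan, the counterpart of yeast Ssf1, had 3.65, 3.68 and 3.82 CPM in heat muscle, against 5.73, 6.65 and 5.52 CPM in control muscle (log2 -0.68, adjusted p = 0.0786). Rrs1, which brings the 5S particle into the 60S precursor, had 8.23, 8.55 and 8.16 CPM in heat muscle, against 11.01, 9.69 and 13.3 CPM in control muscle (log2 -0.45, adjusted p = 0.105). For both, the 3 heat libraries lay within a narrow band below all control libraries, yet neither was called. DESeq2 (adjusted p = 0.0128) and the edgeR fit of all 24 libraries (0.0151) called Ppan.

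After 4 h of recovery all 42 log2 changes against control muscle were positive under TMM scaling, with a median of 0.181 and a range of 0.006 to 1.63, yet no member was called by edgeR. Over all genes tested the median was 0.001, 50.1% of changes were positive and 0.0676% were called. Of the members 8 had an unadjusted p under 0.05 (4.95% of all genes did), and DESeq2 called 1, Nle1 (adjusted p = 0.034). The share of all genes called by DESeq2 is not given here. Recovery libraries lay above all control libraries for 15 of 42 members, against 5.64% of all genes, and below all of them for 0 of 42, against 3.89% of all genes.

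Nolc1, Ddx21, Nop58, Nop14, Nop2, Rrp12, Gnl3 and Nle1 were the 8. Gnl3 (nucleostemin, a nucleolar GTPase of proliferating cells) had 15.2, 15.2 and 17.5 CPM in recovery muscle, against 11.4, 9.64 and 12.6 CPM in control muscle (log2 0.51, SE 0.15, adjusted p = 0.658). Ddx21 had 53.6, 50.6 and 56.5 CPM in recovery muscle, against 39.98, 39.3 and 46.7 CPM in control muscle (log2 0.35, adjusted p = 0.658). Nop2, a methyltransferase of the large rRNA, had 21.2, 22.3 and 21.2 CPM in recovery muscle, against 14.5, 14.7 and 19.9 CPM in control muscle (log2 0.40, adjusted p = 0.879). In each of these genes control library 3 was the highest control and still lay below every recovery library.

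**Figure D3:**
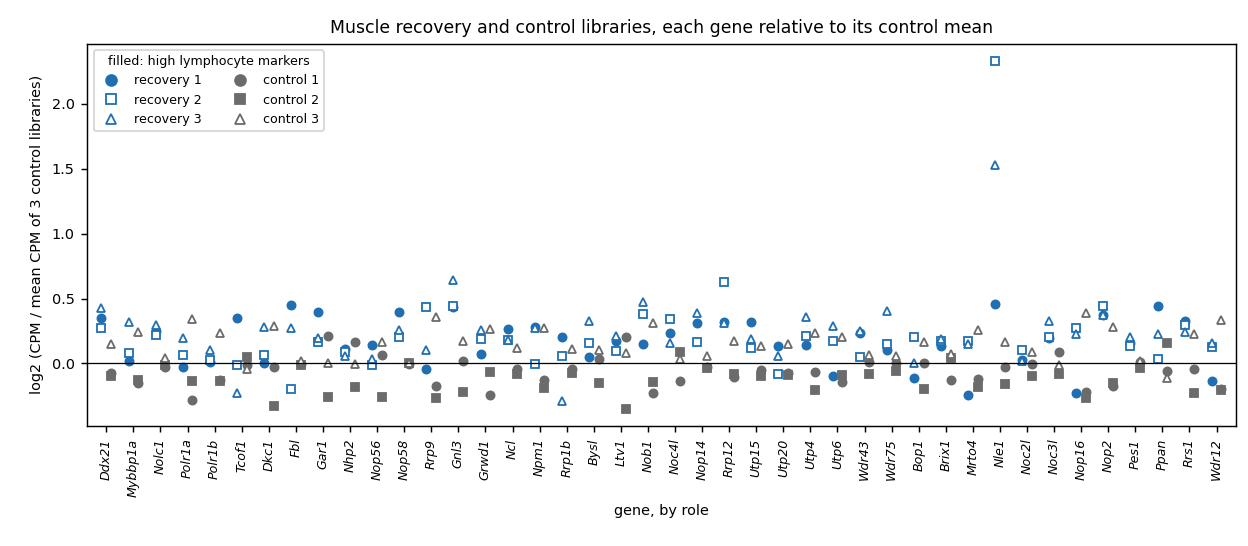
Each gene's CPM in the muscle recovery and control libraries, as log2 of its ratio to the mean of the 3 control libraries; points are libraries, and filled points are the 3 libraries with high lymphocyte markers. Control 3 (grey triangles) is the highest control library for 34 of 42 genes, and Nle1 reaches beyond 1 in recovery 2 and 3 alone.

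By role, medians in recovery over control muscle were 0.114 for the RNA polymerase I group, 0.179 for snoRNP proteins, 0.188 for the nucleolar scaffold group, 0.22 for the 40S group and 0.166 for 60S assembly. Of the genes followed in every comparison, Fbl had a log2 change of 0.20, Ncl 0.21, Npm1 0.19, Polr1a 0.08 and Polr1b 0.05. A list of 103 other assembly factors had 92 positive changes and a median of 0.113, with none called by edgeR and 9 at an unadjusted p under 0.05. The 13 other RNA polymerase I genes had 9 positive changes, none called and 1 at an unadjusted p under 0.05.

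The count of positive changes rests on particular libraries. Under library size alone 27 of 42 were positive while the median of all genes was -0.15. All 42 lay above the all-gene median under both scalings, a count that a shift common to all genes leaves nearly unchanged. Muscle control 1, control 2 and recovery 1 carried more T and NK cell markers (58.7, 35.0 and 78.8 CPM in sum) than the other 6 libraries (0.165 to 14.6 CPM), less muscle fibre RNA (197500 to 207000 CPM, against 313400 to 368200 CPM) and more adipocyte RNA (1094 to 1527 CPM, against 52.6 to 410 CPM). All 12 T and NK markers were detected in control and in recovery muscle, and Ncr1 alone of them was at 0 in heat muscle. Without those 3 libraries, which leaves 1 control library assumed to vary like the other groups, 26 of 42 changes were positive in recovery (median 0.05) and 14 of 42 in heat. The control left is control 3, the highest control library for 34 of 42 members. It is also the control low in lymphocyte and adipocyte markers, and recovery 1 was left out of the same fit. The choice of control library and tissue composition therefore cannot be told apart here. In that fit the Nle1 change in heat over control was 4.43 (adjusted p = 0.348). Leaving out control 2 alone gave 33 positive changes in recovery. The part of tissue composition in these values was not tested further.

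Recovery set against heat muscle gave no called member by edgeR, which called 0.468% of all genes, and 8 at an unadjusted p under 0.05 (19.7% of all genes). DESeq2 called 4 members, and its share of all genes is not given here. Ppan had 8.11, 6.12 and 6.98 CPM in recovery muscle, against 3.65, 3.68 and 3.82 CPM in heat muscle (log2 0.93, SE 0.16, adjusted p = 0.0515). Rrs1 had 14.2, 13.9 and 13.4 CPM in recovery muscle, against 8.23, 8.55 and 8.16 CPM in heat muscle (log2 0.73, SE 0.13, adjusted p = 0.0528). Utp15 had 11.97, 10.4 and 10.9 CPM in recovery muscle, against 7.83, 7.62 and 7.96 CPM in heat muscle (log2 0.51, SE 0.12, adjusted p = 0.0923). The recovery libraries of these genes lay wholly above the heat libraries, and the fit of all 24 libraries called all of them (adjusted p of 0.00415, 0.0104 and 0.0228) together with Nle1. Libraries did not overlap for 13 members higher and 2 lower in recovery, against 15.4% and 11% of all genes.

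**Figure D4:**
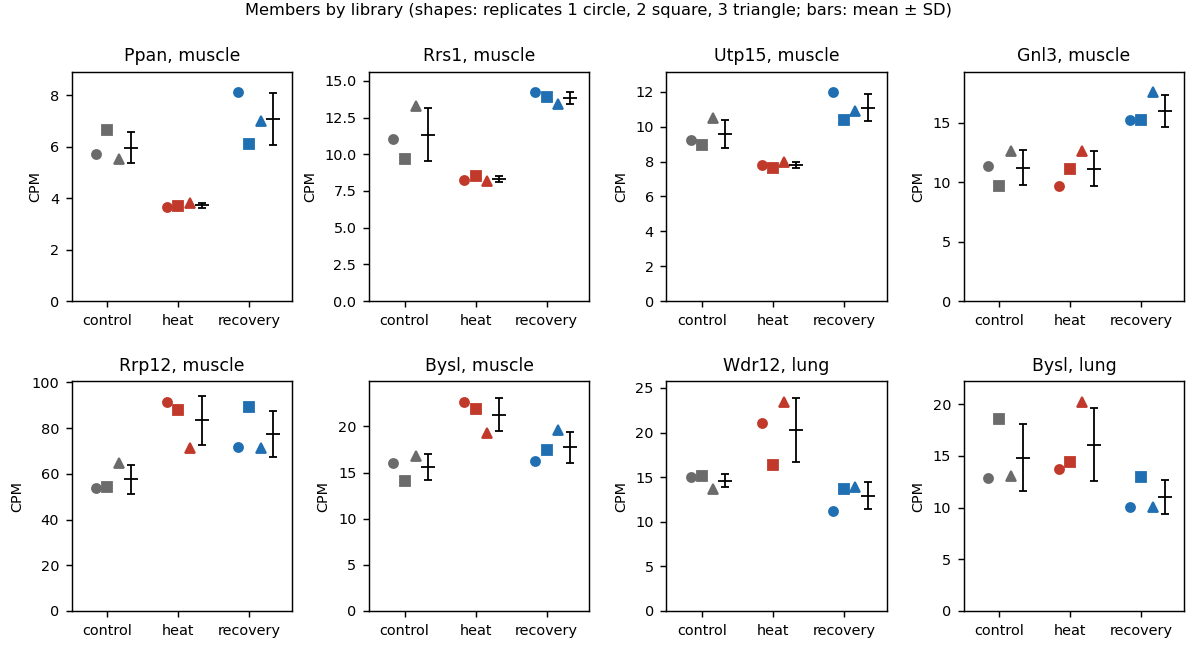
CPM by library of 6 genes in muscle (Ppan, Rrs1, Utp15, Gnl3, Rrp12, Bysl) and of Wdr12 and Bysl in lung, in control, heat and recovery. Points are libraries and bars are the mean ± SD over 3 libraries; axes start at 0. Ppan, Rrs1 and Utp15 have their lowest 3 muscle libraries in heat, and Wdr12 its highest 3 lung libraries in heat.

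In lung, no member was called directly after heat by edgeR, although 5.85% of the 19438 genes tested were. DESeq2 called 1, Wdr12, and its share of all genes is not given here. By edgeR 2 (Wdr12 and Rrp1b) had an unadjusted p under 0.05, against 23.5% of all genes. The 42 log2 changes ran from -0.34 to 0.47, with a median of 0.025 and 24 positive. Under TMM and under library size alone 24 lay above the all-gene median, a count that a shift common to all genes leaves nearly unchanged. Lung libraries of the groups did not overlap for 1 member higher and 2 lower after heat, against 12.7% and 14.2% of all genes. The summed members came to 982 to 1176 CPM in heat lung and 1038 to 1086 CPM in control lung. Heat library 3, the highest, also had the highest Hspa1a (6334 CPM).

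Markers of blood cells moved in the same lung comparisons. After heat all 10 B cell markers were lower and 5 fell (median log2 -0.858), with sums of 182 to 184 CPM in heat lung and 309 to 328 CPM in control lung. All 12 T and NK cell markers were lower and 3 fell, with sums of 41.4 to 47.9 CPM in heat lung and 63.1 to 73.6 CPM in control lung. Of 9 neutrophil markers tested 8 were higher after heat, none called by edgeR and 4 at an unadjusted p under 0.05, and 4 of the 9 fell in recovery relative to heat. All 13 neutrophil markers summed to 42.5 to 115 CPM in recovery lung, 86.1 to 223 CPM in heat lung and 71.8 to 95.4 CPM in control lung, with Elane at 0 in recovery and control. No B, T or NK marker was at 0 in a lung group. The part of these cells in the lung values was not tested.

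Wdr12 forms the PeBoW complex of 60S assembly with Pes1 and Bop1. It had 21.1, 16.4 and 23.4 CPM in heat lung, against 14.99, 15.1 and 13.7 CPM in control lung (log2 0.47, SE 0.14, adjusted p = 0.0693). All heat libraries lay above all control libraries. In recovery lung it had 11.2, 13.6 and 14.0 CPM and fell relative to heat (log2 -0.65, SE 0.14, adjusted p = 0.0158), the single member called of 42 in a comparison where 5.84% of genes fell and 5.46% rose. The call was lost without heat 1 (adjusted p = 0.053), recovery 1 (0.0774) or recovery 2 (0.0512). An exon of Wdr12 overlaps one of Carf, on the other strand.

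Of its partners, Bop1 had a log2 change of 0.34 in heat over control lung and -0.39 in recovery over heat lung (adjusted p = 0.229 and 0.135), and Pes1 had 0.06 and -0.04. The 2 members next to Wdr12 by p in recovery over heat were Ddx21 and Bysl. Bysl had 10.03, 13.0 and 10.1 CPM in recovery lung, against 13.7, 14.4 and 20.2 CPM in heat lung (log2 -0.54, adjusted p = 0.088), and DESeq2 called it (0.0481). Ddx21 had 53.0, 62.4 and 60.8 CPM in recovery lung, against 71.4, 66.2 and 81.3 CPM in heat lung (log2 -0.31, adjusted p = 0.0625), and DESeq2 called it too (0.0316). Recovery libraries lay wholly below heat for 7 members and wholly above for 4, against 16.1% and 17.3% of all genes.

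Ncl took the opposite course in lung. It had 149, 142 and 148 CPM in recovery lung, against 125, 127 and 125 CPM in heat lung (log2 0.22, SE 0.08, adjusted p = 0.104). The groups did not overlap, and control lung had 155, 124 and 147 CPM. Npm1 had 64.4, 60.5 and 69.6 CPM in recovery lung and 69.0, 68.4 and 57.9 CPM in heat lung, which overlapped.

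Fbl had 10.5, 11.7 and 13.1 CPM in heat lung, against 10.6, 12.7 and 12.6 CPM in control lung. Polr1a had 43.8, 41.8 and 54.3 CPM in heat lung, against 42.3, 48.5 and 44.8 CPM in control lung, and Polr1b had 20.0, 20.6 and 22.5 CPM, against 20.4, 26.3 and 19.8 CPM. None of these groups separated.

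Recovery set against control lung gave no called member by either tool, with 2 (Bysl and Tcof1) at an unadjusted p under 0.05 (7.14% of all genes), while 0.0309% of all genes were called by edgeR. Of the 42 changes 10 were positive, the median was -0.077 and the range -0.42 to 0.09, while 50.7% of all genes were positive. Libraries did not overlap for 0 members higher and 7 lower in recovery, against 8.61% and 8.24% of all genes. Tcof1 had 25.2, 25.6 and 26.4 CPM in recovery lung, against 31.1, 33.5 and 31.6 CPM in control lung (log2 -0.32, SE 0.13, adjusted p = 0.659). The 103 other assembly factors had 28 positive changes and a median of -0.062, none called and 5 at an unadjusted p under 0.05.

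Changes among pathway genes outside the 42 were called in lung and in no other single tissue, a contrast between tissues that was not tested. Aatf, a processome-associated factor, had 31.6, 37.5 and 34.3 CPM in heat lung, against 46.9, 43.3 and 44.5 CPM in control lung, and fell (log2 -0.38, adjusted p = 0.0257). Taf1b, of the promoter-selectivity factor of RNA polymerase I, had 13.3, 12.4 and 10.9 CPM in heat lung, against 18.2, 17.9 and 17.9 CPM in control lung, and fell (log2 -0.56, adjusted p = 0.0216). In both genes all heat libraries lay below all control libraries. These were 1 of 103 other assembly factors and 1 of 13 other RNA polymerase I genes, where 5.85% of all genes were called.

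In recovery relative to heat Aatf rose (log2 0.32, adjusted p = 0.0349), and so did Taf1b (log2 0.49, adjusted p = 0.0221). In that comparison the helicase Ddx52 rose as well (log2 0.43, adjusted p = 0.0276). Mdn1, the counterpart of the yeast ATPase that acts on Rsa4, had 96.2, 96.4 and 84.1 CPM in recovery lung, against 124, 112 and 166 CPM in heat lung, and fell (log2 -0.54, adjusted p = 0.0319). The calls were 3 of 103 assembly factors, 2 higher and 1 lower, and 1 of 13 RNA polymerase I genes, where 11.3% of all genes were called. In heat muscle, where Nle1 was highest, Mdn1 had 69.2, 66.2 and 65.1 CPM, against 77.9, 68.2 and 67.5 CPM in control muscle.

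Myc drives many ribosome biogenesis genes, and Mxd proteins and Mnt compete with it for the partner Max. Of the 10 genes of the Myc network tested in lung, Mxd1 (log2 0.76, adjusted p = 0.0232) and Mxd4 (log2 0.65, adjusted p = 0.00657) rose and Mnt (log2 -0.52, adjusted p = 0.0305) fell after heat, 3 of 10 against 5.85% of all genes. In recovery relative to heat Mnt (log2 0.88) and Mycn (log2 1.32) rose and Mxd1 (log2 -0.73) and Mxd4 (log2 -0.60) fell, 4 of 10 against 11.3% of all genes. The part of the blood cell markers that moved in the same comparisons was not tested. Myc itself had 5.18, 5.08 and 4.42 CPM in heat lung, against 5.26, 4.42 and 6.04 CPM in control lung, and was not called. In muscle Myc had 2.90, 3.38 and 4.27 CPM after heat, against 4.54, 2.91 and 8.14 CPM in control, which overlapped.

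In blood, which had 2 libraries in each condition, edgeR called no member in any comparison, and DESeq2 called none. Over all genes, 0% of 15869 were called by edgeR in heat over control and 610 by DESeq2; 0% were called in recovery over control and 62 by DESeq2; 3.99% were called in recovery over heat. At an unadjusted p under 0.05 there were 3, 0 and 3 members in these comparisons, against 14.8%, 8.93% and 24.2% of all genes. Of the 42 changes in heat blood 8 were positive, with a median of -0.134 against 0.019 over all genes. Heat libraries lay wholly below control for 16 members and wholly above for 3, against 23.1% and 20.5% of all genes.

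Ncl had 40.4 and 48.5 CPM in heat blood and 45.97 and 43.2 CPM in recovery blood, against 53.3 and 55.3 CPM in control blood. Both treated groups lay below control (log2 -0.29 and -0.28, adjusted p = 0.363 and 0.544). Nop14, of the processome, had the lowest change after heat (log2 -0.52, adjusted p = 0.205).

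Polr1a had 26.0 and 27.9 CPM in heat blood, against 20.6 and 24.5 CPM in control blood (log2 0.26, adjusted p = 0.404), and it was 1 of the 3 members whose heat libraries lay wholly above control. Polr1b had 6.98 and 8.75 CPM in heat blood, against 8.55 and 8.82 CPM in control blood. Fbl had 4.77 and 7.85 CPM in heat blood, against 7.31 and 8.14 CPM in control blood, and Npm1 had 28.6 and 39.97 CPM, against 35.6 and 42.7 CPM. The other assembly factors had 22 of 103 positive changes in heat blood (median -0.18), none called and 20 at an unadjusted p under 0.05.

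Sums of blood cell markers varied between and within these groups of 2 libraries. No neutrophil or erythroid marker was called by edgeR against control, and 3 of 11 neutrophil markers tested fell in recovery relative to heat. For the erythroid sum the heat libraries enclosed the control libraries. The 13 neutrophil markers summed to 746 to 917 CPM in heat blood and 230 to 338 CPM in recovery blood, against 426 to 471 CPM in control blood. The 9 erythroid markers, chiefly globins, summed to 369300 and 904700 CPM in the 2 heat libraries and 769700 and 915700 CPM in the recovery libraries, against 571800 and 399500 CPM in control. Their part in the members' values was not tested.

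Recovery over control blood had 14 positive changes of 42 (median -0.066), with 12 members wholly below control and 4 wholly above, against 26.8% and 25.2% of all genes. The 5 nucleolar scaffold genes, Ncl, Npm1, Gnl3, Grwd1 and Rrp1b, had changes of -0.37 to -0.24. Recovery over heat blood had 23 positive changes (median 0.048), with Ltv1, a 40S factor, highest (log2 0.65, adjusted p = 0.172). There 13 members lay wholly above heat and 5 wholly below, against 29.5% and 26.4% of all genes.

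At baseline the tissues were compared in a fit of all 24 libraries, and levels between tissues depend on the scaling. Under TMM 34 members were higher and none lower in control muscle than in control lung (28% of all genes were called higher and 28% lower), and under library size alone 3 were higher and 12 lower. In control blood against control lung 30 were higher and none lower (26.6% of all genes were called higher and 34.1% lower), and under library size alone none was higher and 32 were lower. Library size alone moved the median of all genes to -1.09 in muscle over lung, to -1.72 in blood over lung and to -0.81 in blood over muscle. The share of all genes called under library size alone is not given here. The counts of members called under it are therefore not read as a reversal of these genes. The median member lay 0.928 (TMM) and 0.92 (library size) above the median of all genes in muscle over lung. In blood over lung the median member lay 0.756 and 0.748 above it. In each, 41 of 42 members were above the median of all genes. A change of scaling moves all genes of a comparison by nearly the same amount. The near-equal values therefore follow from the method and are no check on the scaling. In control blood against control muscle 8 members were higher and 17 lower under TMM (28.4% and 38.6% of all genes), and none higher and 23 lower under library size alone.

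Some members differed between muscle and another tissue in the same direction under both scalings. Rrp12 had 63.6, 65.6 and 79.4 CPM in control muscle, against 7.76, 9.53 and 7.65 CPM in control lung, on the TMM scale of all libraries. The log2 difference was 3.06 (SE 0.18, adjusted p = 3.957e-11) under TMM and 2.03 (adjusted p = 8.609e-07) under library size alone. Polr1a (1.52 and 0.47) and Mrto4, a 60S factor related to the ribosomal stalk protein (1.76 and 0.72), were also called higher in muscle than in lung under both. The Polr1a call under library size alone lay near the threshold (adjusted p = 0.0497 by edgeR). Against muscle, blood was lower under both for Rrp12 (-2.02 and -2.56), Mrto4 (-1.31 and -1.84) and the processome protein Utp6 (-1.12 and -1.66).

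Tcof1, Wdr43 and Wdr12 differed from lung under TMM and had lower values under library size alone, which carries the shift of all genes. Tcof1 was higher in blood than in lung by 1.78 (SE 0.15, adjusted p = 4.385e-09) under TMM and by 0.19 (adjusted p = 0.528, not called) under library size alone. Wdr43 was called higher than in lung under TMM both in blood (1.14) and in muscle (0.82). Its values under library size alone were -0.44 and -0.21, neither called. Wdr12 was called higher than in lung in blood (1.72) and in muscle (1.44) under TMM and in neither under library size alone (0.13 and 0.39). Fbl, Utp15, Ppan and Npm1 were called higher in blood than in muscle under TMM (0.87, 0.76, 0.75 and 0.69). Under library size alone no member was called higher in blood than in muscle, and Utp15 was at 0.21 (adjusted p = 0.503 by edgeR).

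A ratio within a library needs no scaling. Relative to the median member of the same control library, Rrp12 stood at 1.11 ± 0.0448 in blood (SD, n = 2), 4.00 ± 0.236 in muscle (SD, n = 3) and 0.918 ± 0.0655 in lung (SD, n = 3). Tcof1 stood at 3.83 ± 0.662 in blood, 1.76 ± 0.213 in muscle and 1.90 ± 0.0627 in lung. Ncl stood at 6.75 ± 0.327 in blood, 5.16 ± 0.17 in muscle and 8.44 ± 1.51 in lung. By this ratio Rrp12 stood highest in muscle, and Tcof1 in blood, with no overlap between libraries of these tissues and the others. Per kilobase of annotated exon, on the TMM scale, Npm1 was the highest member in each control tissue, at 28.3 CPM per kb in blood, 17.5 in muscle and 14.2 in lung. Lengths were the union of all annotated exons of a gene, 10188 bases for Ncl and 2665 for Npm1, and the ranking rests on them. Under library size alone Npm1 was again the highest, at 18.2, 16.2 and 27.2 CPM per kb in these tissues. The median member had 3.48 CPM per kb in blood, 4.62 in muscle and 2.26 in lung under TMM, and 2.24, 4.31 and 4.32 under library size alone, so the order of the tissues depends on the scaling.

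**Figure D5:**
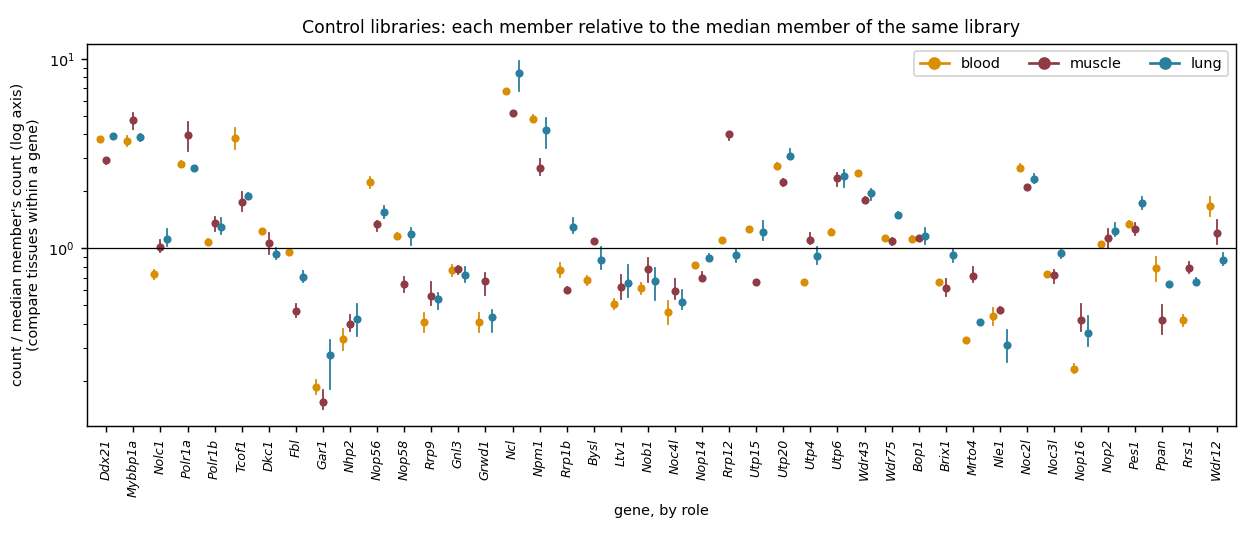
Counts of each member divided by the count of the median member of the same control library, on a log axis; points are means and lines run from the lowest to the highest library (2 in blood, 3 in muscle and lung). Counts are not divided by gene length, so tissues are to be compared within a gene: Rrp12 stands at 4.00 in muscle and near 1 in blood and lung.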

How the data were processed

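Raw read counts per gene were deposited by the authors, with no normalization. Alignment was with STAR 2.7 to GRCm39 and counting with featureCounts, per the submitters' processing notes; the version and strand setting of the counter are not given in the sources used here. The labels name TRIzol total RNA and a NEBNext Ultra Directional kit. Tests used edgeR 4.0.16 under R 4.3.3, with limma 3.58.1: filterByExpr (minimum count 10, minimum total 15), TMM, robust quasi-likelihood tests and Benjamini-Hochberg adjustment at 0.05. Each tissue was fitted alone over its 3 conditions, which share one spread, so comparisons of one tissue share libraries. Differences between tissues came from 1 fit of 24 libraries. Common biological coefficients of variation were 0.338 (muscle), 0.161 (lung) and 0.263 (blood). No library was a copy of another: within groups, squared count differences exceeded counting error 11.6 times or more. Other settings were DESeq2 1.42.0, other scalings, no filter, a replicate block, the joint fit and leaving out libraries. The pipeline was tested on simulated data.

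The 42 members and all gene lists were chosen with earlier results of these data known. Values per library were given for Nle1, Fbl, Ncl, Npm1, Polr1a, Polr1b and called members; other genes named are those with the smallest p or extreme values, chosen after their values were seen. Exon overlaps and lengths came from GENCODE M21, an annotation of another build, so no coordinates are given, and promoter sequences were not used here.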

Additional observations from a re-analysis of the deposited data

Results flagged for a closer look

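The heat response of Nle1 differed between tissues by a test of the difference itself. It was 4.37 higher in muscle than in lung (log2, SE 0.57, adjusted p = 0.00608) and 5.15 higher in muscle than in blood (SE 0.65, adjusted p = 0.00117) in edgeR's quasi-likelihood test over 24 libraries. All 3 heat libraries of muscle showed the direction. Reads that Nle1 may share with Fndc8 or with transcription from the Unc45b side bear on the size of both values, and their part was not tested.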

How the results depend on the processing

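Counts of called members moved with the tool. DESeq2 called 4 in muscle heat over control, 1 in muscle recovery over control, 4 in muscle recovery over heat, 1 in lung heat over control, 3 in lung recovery over heat, 2 for muscle minus lung and 3 for muscle minus blood heat responses, against 1, 0, 0, 0, 1, 1 and 1 by edgeR. The edgeR fit of all 24 libraries called 3 in muscle heat over control and 4 in muscle recovery over heat. The shares of all genes called by DESeq2 and by that fit are not given beside these counts. Whether the counts exceed the background of those settings was not tested. Library size alone gave 2 in lung recovery over heat, 15 for muscle over lung (3 higher, 12 lower), 32 for blood over lung (all lower), and 27 positive changes in muscle recovery. For muscle over lung and blood over lung the median of all genes moved to -1.09 and -1.72 under library size alone. The lower calls carry this shift and are not read as a reversal of the members. Wdr43 was then at -0.44 in blood over lung and -0.21 in muscle over lung, called in neither by edgeR (adjusted p = 0.0889 and 0.367). With the 6 muscle libraries low in lymphocyte markers, a setting chosen after seeing the data like library size alone, 0 members were called in muscle heat and 26 changes were positive in muscle recovery. RLE size factors and no low-count filter changed no count beyond 1.5 times.

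Leaving out 1 library gave 0 to 4 called members in muscle heat over control, 0 to 0 in muscle recovery over control, 0 to 1 in muscle recovery over heat, 0 to 1 in lung heat over control, 0 to 0 in lung recovery over control, 0 to 3 in lung recovery over heat and 0 to 0 in each blood comparison. For heat responses it gave 1 to 2 for muscle minus lung, 1 to 3 for muscle minus blood and 0 to 0 for lung minus blood. At baseline it gave 33 to 35 for muscle over lung, 20 to 25 for blood over muscle and 18 (without blood control 3) to 31 for blood over lung. Positive changes in muscle recovery numbered 33 (without control 2) to 42.

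Replicate numbers were not shown to pair libraries: correlations of same-numbered deviations ran from -0.38 to 0.67 in muscle. With the number as a replicate block, 0 members were called in muscle heat over control (Nle1 4.61, adjusted p = 0.0931) and 41 changes were positive in muscle recovery. In blood, where heat and recovery each share 1 number with control, the block left 1 residual degree of freedom and 0 members were called in each comparison, as without it; the blood fits against control were added after seeing the data. At baseline the block gave 34 called for muscle over lung, 28 for blood over lung and 23 for blood over muscle. The causes of these shifts were not tested. The members' median standard errors were 0.14 in muscle, 0.133 in lung, 0.156 to 0.157 in blood and 0.214 to 0.241 for differences of heat responses. With 2 or 3 libraries a group, log2 changes far above these can go uncalled. Ppan in muscle recovery over heat (0.817 to 0.964) was called in 0 of 9 edgeR fits that left out 1 library.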
